A study of Mus musculus with 12 samples.

Results

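The comparison described here set nucleus accumbens tissue from mice given a cocaine challenge after withdrawal against tissue from mice given saline throughout. Its members were 6 of the 12 bead arrays of the series, 3 in each group, taken by their treatment labels alone. In the withdrawal group, mice received 15 daily intraperitoneal injections, namely 7 of cocaine-HCl at 20 mg/kg, then 7 of saline, then 1 cocaine challenge at the same dose. The saline group received 15 saline injections. A pair of other cocaine groups lent their spread to the statistical model and served for direct contrasts: the acute group had 14 saline injections and 1 of cocaine, and the repeated group had 7 of saline followed by 8 of cocaine. All mice were C57BL/6J, 8 to 10 weeks old, and were killed 1 h after the last injection. Each array carried RNA pooled from bilateral 15-gauge punches, 1 mm thick, of 4 mice, so that the 3 arrays of a group stood for 12 mice. The p-values therefore measure the spread between pools. Within this comparison the earlier cocaine course, the withdrawal and the challenge cannot be told apart, since the withdrawal group had all of them and the saline group none.

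The nucleus accumbens is the ventral part of the striatum, and most of its neurons are medium spiny neurons that receive dopamine from the midbrain. Cocaine blocks the dopamine transporter, and the dopamine that accumulates activates D1 receptors, cAMP and MAP kinase signalling in these neurons. Within an hour this induces immediate early genes, whose products are transcription factors of the Fos, Jun and Egr families and synaptic effectors such as Arc. Repeated cocaine is known to alter the size of this induction and to lower the H3K9 dimethyltransferase G9a (Ehmt2) in this region, the subject named in the title of the series.

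Expression is given as log2 intensity per probe after background subtraction and quantile normalization by the authors, with values under 10 set to 10 (log2 3.32). A gene was represented by its brightest probe among the 25478 probes detected on at least 3 of the 12 arrays, which left 12732 genes. Between 22189 and 23750 of 45281 probes were detected on the 6 arrays, and correlations between arrays were 0.979 to 0.988 within groups and 0.977 to 0.988 between them. Striatal identity was clear, with 14 of 16 listed medium spiny neuron markers measured and their summed intensity at 120082 to 135469 on the withdrawal arrays and 112950 to 127496 on the saline arrays. Ppp1r1b, which encodes DARPP-32, had log2 intensities of 13.90, 13.73 and 14.02 on withdrawal arrays 1 to 3 and 13.93, 13.84 and 14.01 on saline arrays 1 to 3. The median of the cortical neuron markers set the arrays numbered 2 apart in both groups. Measured from each marker's mean over the 12 arrays, it was −0.11, 0.47 and −0.36 on withdrawal arrays 1 to 3. On saline arrays 1 to 3 it was −0.33, 0.65 and −0.30. Slc17a7, the cortical vesicular glutamate transporter, read 7.88, 10.04 and 6.23 on the withdrawal arrays and 6.83, 10.23 and 4.82 on the saline arrays. Tbr1, a cortical transcription factor, read 5.94, 8.35 and 4.33 on the withdrawal arrays and 4.20, 7.97 and 3.32 on the saline arrays. The summed intensity of the 9 measured cortical markers of 11 listed was 4662 to 5186 on the withdrawal arrays and 3960 to 6065 on the saline arrays. In withdrawal minus saline 6 of the 9 were higher, with a median log2 difference of 0.25, which was −0.06 without withdrawal array 2. Ttr, the choroid plexus transthyretin, read 7.65, 5.27 and 10.73 on the withdrawal arrays and 9.15, 9.18 and 9.35 on the saline arrays. In bulk tissue, fewer cells of a type and less RNA per cell cannot be told apart.

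No probe differed between withdrawal and saline at a Benjamini-Hochberg adjusted p under 0.05 in the limma model of all 12 arrays, and the lowest adjusted p was 0.142. At an unadjusted p under 0.05 there were 1990 of 25478 probes (7.81%), of which 1069 (4.2%) were higher and 921 (3.61%) lower in withdrawal. The criteria of the series, a 1.3-fold difference together with an unadjusted p under 0.05, held for 1005 probes (3.94%), 632 higher (2.48%) and 373 lower (1.46%). Of these 1005 probes, 64.3% had a mean log2 intensity under 6, against 39.3% of all tested probes. With 1 probe per gene, 910 genes (7.15%) had an unadjusted p under 0.05. Of the 12732 genes, 3.38% were higher and 3.77% lower at that limit, the arrays of withdrawal lay entirely above those of saline for 6.9% and entirely below for 7.97%, and 49% had a difference above 0. A fit of only the 6 arrays of the comparison, with their replicate number as a block, had 388 genes higher and 424 lower at that limit, against 430 and 480 as reported. The block on all 12 arrays raised the calls in general, to 1446 probes higher and 1241 lower at that limit, against 1069 and 921 without it. With single arrays left out, the share of genes higher at that limit ran from 1.9% to 5.21%, and the share lower from 2.05% to 4.24%. These percentages are the background for every gene list that follows. Every difference below failed the adjusted threshold. Unless another value is given or the p is withheld, the adjusted p was at least 0.538.

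Immediate early transcription factors were higher after the challenge. Of 21 listed genes 16 were measured, and 12 of these were higher in withdrawal, with a median log2 difference of 0.28 against a median of −0.00 over all genes. An unadjusted limma p under 0.05 was reached by 5 members, all higher, against 3.38% of all genes. The groups did not overlap for Fosl2, Egr1 and Crem. The promoters of Fos, Npas4 and Egr2 are shown because these genes had the largest differences of the list. The sequences run 5′ to 3′ from 250 bases before to 50 bases after the transcription start in RefSeq (GRCm38.p6). Capitals mark TGACG, the core of the cAMP response element bound by CREB, read on both strands and so also as CGTCA, and in Egr2 additionally the CArG box of the serum response factor.
Fos promoter, chr12:85473640-85473939, plus strand: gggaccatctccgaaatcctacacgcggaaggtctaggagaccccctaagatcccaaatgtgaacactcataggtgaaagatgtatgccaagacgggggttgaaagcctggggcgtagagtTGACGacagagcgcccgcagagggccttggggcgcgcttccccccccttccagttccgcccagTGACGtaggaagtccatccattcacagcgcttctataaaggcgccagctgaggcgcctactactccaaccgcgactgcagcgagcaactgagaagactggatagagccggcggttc
Npas4 promoter, chr19:4989922-4990221, minus strand: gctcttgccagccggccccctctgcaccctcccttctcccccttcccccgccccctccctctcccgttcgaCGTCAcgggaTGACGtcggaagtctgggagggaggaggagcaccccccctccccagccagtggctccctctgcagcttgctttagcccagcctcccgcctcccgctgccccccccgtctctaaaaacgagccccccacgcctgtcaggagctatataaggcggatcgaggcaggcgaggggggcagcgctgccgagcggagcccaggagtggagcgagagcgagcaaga
Egr2 promoter, chr10:67537619-67537918, plus strand: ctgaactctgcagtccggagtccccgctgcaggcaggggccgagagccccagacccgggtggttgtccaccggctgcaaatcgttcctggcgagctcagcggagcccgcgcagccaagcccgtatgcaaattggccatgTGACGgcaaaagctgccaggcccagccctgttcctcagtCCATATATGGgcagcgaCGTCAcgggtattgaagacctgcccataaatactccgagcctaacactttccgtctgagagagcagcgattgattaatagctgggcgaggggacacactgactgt
Each of these windows holds 2 TGACG cores, and that of Egr2 holds 1 CArG box between them. Egr2 has 5 starts in the annotation, and the window with the most matches was picked, so its matches partly follow from that choice. Among the 16 measured immediate early genes 13 had a promoter in the table, and 10 of these 13 held the core, as did 33.7% of the 10256 measured genes with a promoter and 20.8% of all 32851 promoters. The CArG box was in 1 of the 13, against 1.74% of measured genes with a promoter and 1.63% of all promoters, and the full palindrome TGACGTCA was in none, against 3.42% and 1.79%. These are matches of letters and not measured binding sites. Sequence outside the window was not searched, so an absent match does not mean that a gene lacks the element.

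Fos, the inducible subunit of the AP-1 factor, had log2 intensities of 9.70, 9.52 and 9.73 on withdrawal arrays 1 to 3, against 8.51, 9.55 and 8.11 on saline arrays 1 to 3. The withdrawal arrays were close together, and saline array 2 stood at their level while the other saline arrays lay below. The difference was 0.93 ± 0.32 (SE, 1.91-fold; limma unadjusted p = 0.0157, adjusted p = 0.626), and it was 1.34 without saline array 2 and 0.63 without saline array 3. Npas4, an activity-regulated factor that controls inhibitory synapses, read 7.88, 7.66 and 8.19 on the withdrawal arrays, against 6.55, 7.66 and 7.25 on the saline arrays. Its lowest withdrawal array equalled its highest saline array, which again was number 2. The difference was 0.75 ± 0.24 (1.69-fold; limma unadjusted p = 0.0105, adjusted p = 0.612). Saline array 2 was also the saline array with the highest median of the cortical markers. Withdrawal array 2 likewise had the highest Slc17a7 and Tbr1 of its group, and it had the lowest Fos and Npas4 of that group. The part of cortical tissue in these values was not tested.

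Egr2, a zinc finger factor of the Egr family, read 9.34, 8.88 and 9.56 on the withdrawal arrays, against 8.94, 8.79 and 8.21 on the saline arrays. Only saline array 1 reached into the withdrawal range, and the difference was 0.61 ± 0.22 (1.53-fold; limma unadjusted p = 0.0184). Egr1, the most studied member of that family in cocaine learning, was already bright, at 13.55, 13.71 and 13.79 on the withdrawal arrays against 13.47, 13.49 and 13.27 on the saline arrays. All withdrawal arrays lay above all saline arrays, by 0.27 ± 0.11 (1.20-fold; limma unadjusted p = 0.0369). Crem, which includes the repressor ICER that shuts off cAMP-driven transcription, read 6.81, 6.64 and 6.69 in withdrawal, against 6.36, 6.35 and 6.45 in saline. The groups were apart by 0.33 ± 0.09 (1.26-fold; limma unadjusted p = 0.00491), but its 3 other probes gave 0.11, −0.29 and −0.22, so the probes of this gene disagreed. Fosl2, a Fos relative, read 9.37, 9.28 and 9.11 in withdrawal, against 8.89, 8.99 and 8.67 in saline, and the groups did not overlap although the unadjusted p was 0.0622.

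The remaining members differed by less or overlapped. Fosb, whose stable splice product accumulates with repeated cocaine, was 0.46 ± 0.26 higher, with withdrawal array 2 at 7.96 inside the saline range of 7.83 to 8.14. Egr4, Egr3 and Junb differed by 0.29 ± 0.17, 0.20 ± 0.14 and 0.20 ± 0.18, all with overlapping groups. The 4 lower members were Jun at −0.08, Jund at −0.19, Klf2 at −0.12 and Klf4 at −0.22, named here after their values were seen. Nr4a2, an orphan nuclear receptor named on the same basis, followed the array number more than the group, at 5.53, 7.14 and 4.68 in withdrawal and 4.98, 7.43 and 4.19 in saline. Nr4a1 was detected on 0 of 12 arrays and was not tested. Leaving out single arrays kept the median of the list between 0.225 and 0.350, while the number of members at an unadjusted p under 0.05 was 3 without withdrawal array 3, 2 without saline array 3, and 3 with the replicate number as a block on the 6 arrays.

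**Figure D1:**
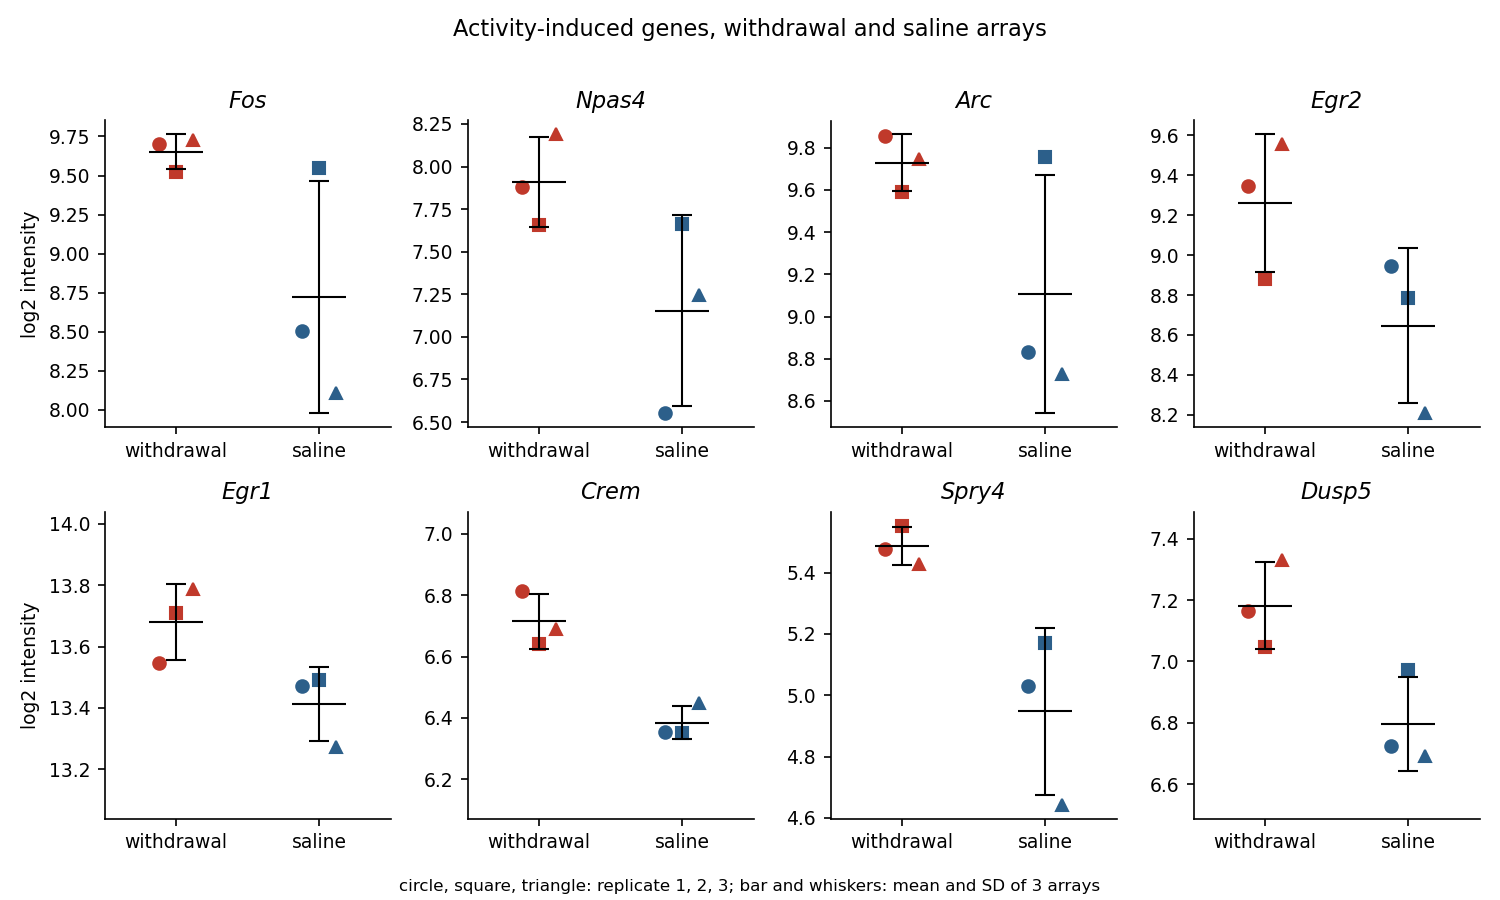
Log2 intensity of 8 activity-induced genes on the 3 withdrawal arrays (left in each panel) and the 3 saline arrays (right). Symbols mark the replicate number, and bars and whiskers show the mean and SD. In the panels of Fos, Npas4 and Arc saline array 2 (square) lies at 9.55, 7.66 and 9.76, at the level of the withdrawal arrays, while the groups of Egr1, Crem, Spry4 and Dusp5 do not overlap.

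Effectors of neuronal activity, the products that act at synapses or are secreted, showed a mixed pattern. Of 28 measured genes 17 were higher in withdrawal with a median of 0.04 (−0.02 without saline array 3), and at an unadjusted limma p under 0.05 there were 2 higher and 1 lower (4 higher and 1 lower with the replicate number as a block on all 12 arrays, 1 higher and 0 lower with it on the 6 arrays). Arc, which removes AMPA receptors from synapses, read 9.85, 9.59 and 9.75 in withdrawal, against 8.83, 9.76 and 8.73 in saline. As for Fos, saline array 2 lay with the withdrawal arrays and the other saline arrays below them, and the difference was 0.62 ± 0.23 (1.54-fold; limma unadjusted p = 0.0225). It was 0.95 without saline array 2. Scg2, a granin of dense-core vesicles, read 12.64, 12.56 and 12.61 in withdrawal, against 12.39, 12.22 and 12.46 in saline, so that the groups were apart by 0.25 ± 0.10 (limma unadjusted p = 0.0298). Amigo3, a leucine-rich-repeat adhesion protein, was lower at 4.57, 3.32 and 4.84 in withdrawal, against 5.16, 5.05 and 4.83 in saline. Its groups touched and its difference was −0.77 ± 0.34 (limma unadjusted p = 0.0449). Bdnf, the neurotrophin supplied to the striatum mainly by cortical neurons, read 4.48, 7.08 and 4.66 in withdrawal, against 3.75, 6.92 and 3.59 in saline. It was highest on the arrays numbered 2 of both groups, as the median of the cortical markers was. Each withdrawal array was above the saline array of the same number, and the difference of 0.65 was smaller than its error both without the replicate number in the model (± 1.15) and with it as a block (± 0.90). Homer1, whose short form uncouples glutamate receptors from their scaffold, differed by 0.22 ± 0.12.

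Phosphatases and Sprouty proteins that damp MAP kinase signalling, a class induced by the pathway they inhibit, were higher for 10 of 13 measured members with a median of 0.14, and 3 had an unadjusted limma p under 0.05, all higher. Spry4, a Sprouty inhibitor of receptor-driven ERK signalling, read 5.48, 5.55 and 5.43 in withdrawal, against 5.03, 5.17 and 4.64 in saline. All withdrawal arrays were above all saline arrays and the difference was 0.54 ± 0.16 (1.45-fold; limma unadjusted p = 0.00813). Dusp5, a nuclear phosphatase of ERK, read 7.17, 7.05 and 7.33 in withdrawal, against 6.72, 6.97 and 6.69 in saline, likewise apart by 0.39 ± 0.14 (limma unadjusted p = 0.0187). Spred2, a Sprouty-related inhibitor, read 5.93, 5.50 and 5.64 in withdrawal, against 5.36, 5.18 and 5.50 in saline. Its groups met at 5.50 and its difference was 0.35 ± 0.15 (limma unadjusted p = 0.0416). Dusp1, the first of these phosphatases to be induced by many stimuli, differed by 0.28 ± 0.13 with saline array 2 again within the withdrawal range. The count of 3 was 1 without withdrawal array 3 or without saline array 1 or with the replicate block on the 6 arrays, and the median was 0.222 without withdrawal array 1.

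Whether the response to the challenge differed in size from that to a first or an uninterrupted injection was read from the direct contrasts of the same model. No probe passed the adjusted threshold in either, with lowest adjusted p of 0.452 against the acute group and 0.0627 against the repeated group. At an unadjusted p under 0.05 there were 1440 probes (5.65%) against acute and 537 (2.11%) against repeated. Of the 16 immediate early genes 14 were lower in withdrawal than in acute, with a median of −0.17, and 4 had an unadjusted p under 0.05, against 2.33% of all genes that were lower at that limit, and 49.8% of all genes were higher. Against the repeated group 14 of 16 were lower as well, with a median of −0.16, and 1 had an unadjusted p under 0.05, against 0.754% of all genes, of which 50.7% were higher. These contrasts share the withdrawal arrays. Egr2 read 9.34, 8.88 and 9.56 in withdrawal, against 9.93, 9.88 and 9.80 in repeated and 9.97, 10.44 and 10.25 in acute, so that every withdrawal array lay below every array of the other cocaine groups. Withdrawal minus acute was −0.96 ± 0.22 (95% interval −1.45 to −0.47; limma unadjusted p = 0.00132, adjusted p = 0.848), and withdrawal minus repeated was −0.61 ± 0.22 (limma unadjusted p = 0.0189). Junb, Egr4 and Crem were lower than in acute by −0.47 ± 0.18, −0.40 ± 0.17 and −0.21 ± 0.09 (limma unadjusted p = 0.0233, 0.0423 and 0.0472).

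Fos stood otherwise. It read 9.34, 9.45 and 10.07 in acute and 9.77, 9.99 and 10.14 in repeated, and withdrawal minus acute was 0.03 ± 0.32 with an interval of −0.68 to 0.75, which leaves room for a difference in either direction. Npas4 and Arc differed from acute by −0.07 ± 0.24 and −0.20 ± 0.23. Spry4 was the reverse of Egr2, higher in withdrawal than in acute by 0.40 ± 0.16 (limma unadjusted p = 0.0356), and Spred2 was higher than in repeated by 0.62 ± 0.15 (limma unadjusted p = 0.00181). Their list did not share this direction. Of its 13 measured members 7 were lower than in acute and 8 lower than in repeated, with medians of −0.01 and −0.04. At an unadjusted limma p under 0.05, 1 was higher and 2 lower against acute, and 1 higher and 0 lower against repeated. Of all genes 2.33% were lower against acute at that limit.

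Cytosolic heat shock proteins, the chaperones that hold and refold proteins under the control of HSF1, were not shifted as a list. Of 24 measured members 11 were higher, and the median was −0.00 (−0.04 without saline array 3 and 0.05 without withdrawal array 3). A few members nevertheless stood higher in withdrawal. At an unadjusted limma p under 0.05 there were 4, all higher, against 3.38% of all genes. The groups did not overlap for 5 higher members (against 6.9% of all genes) and 1 lower member. The promoter of Hspa1a, the member with the largest difference, is printed over the same window, with the core of the heat shock element (GAANNTTC) in capitals.
Hspa1a promoter, chr17:34972107-34972406, minus strand: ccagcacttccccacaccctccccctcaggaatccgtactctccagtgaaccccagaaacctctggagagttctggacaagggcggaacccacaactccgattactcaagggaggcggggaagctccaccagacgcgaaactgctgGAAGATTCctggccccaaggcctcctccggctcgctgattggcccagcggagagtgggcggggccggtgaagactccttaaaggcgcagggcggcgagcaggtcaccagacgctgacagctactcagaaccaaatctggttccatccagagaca
The core was in 10 of the 21 measured heat shock members with a promoter, as in 7.1% of measured genes with a promoter and 7.86% of all promoters. The 10 included Hspa1a, Hspa1b, Chordc1 and Hsph1 and did not include Dnajb1 or Hspa4l. An absent match says only that these letters are not in the window.

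Hspa1a, the stress-inducible HSP70, read 7.23, 7.41 and 7.57 in withdrawal, against 5.79, 6.48 and 5.21 in saline. Every withdrawal array exceeded every saline array, and the difference was 1.58 ± 0.36 (2.99-fold; limma unadjusted p = 0.00143, adjusted p = 0.54). A second, dim probe, detected on 1 withdrawal array and 0 saline arrays, gave 0.29. The neighbouring copy Hspa1b, whose sequence is nearly identical so that probes may share signal, read 5.72, 5.64 and 6.28 in withdrawal, against 5.92, 5.12 and 5.15 in saline, a difference of 0.48 ± 0.24 with overlapping groups. Dnajb1, the HSP40 partner that delivers clients to HSP70, read 11.81, 11.70 and 11.87 in withdrawal, against 11.38, 11.51 and 11.23 in saline. The groups were apart by 0.42 ± 0.10 (1.34-fold; limma unadjusted p = 0.00174). Hspa4l, an HSP110-type exchange factor, read 7.50, 6.99 and 7.44 in withdrawal, against 6.56, 6.93 and 6.65 in saline, a difference of 0.60 ± 0.16 (limma unadjusted p = 0.00398). Its second probe, of similar brightness, gave 0.11. Chordc1, an HSP90 co-chaperone, was very even within groups, at 10.54, 10.54 and 10.58 in withdrawal and 10.31, 10.31 and 10.28 in saline, and differed by 0.25 ± 0.08 (limma unadjusted p = 0.0118). Bag3 was apart by 0.18 and Fkbp4 lay apart in the other direction by −0.15, both named after their values were seen. In the repeated group Hspa1a read 7.77, 8.28 and 7.70, and in the acute group 5.89, 6.92 and 7.13. Withdrawal minus acute was 0.76 ± 0.36 (interval −0.05 to 1.57) and withdrawal minus repeated was −0.51 ± 0.36.

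Across the wider DnaJ family, the HSP40 co-chaperones, 13 of 35 measured genes were higher, with a median of −0.02 (0.03 without withdrawal array 3 or without saline array 3). Dnajb3, a family member known from testis, had the smallest p of the comparison. It read 4.14, 4.20 and 4.19 in withdrawal, against 5.49, 5.21 and 5.38 in saline. Each group was tight and the groups were far apart, by −1.18 ± 0.14 (2.27-fold lower; limma unadjusted p = 5.57e-06, adjusted p = 0.142), but at low intensity, and a second probe gave −0.19. Dnajc7, a co-chaperone with TPR repeats, read 10.25, 10.57 and 10.37 in withdrawal, against 10.77, 10.96 and 10.69 in saline, apart by −0.41 ± 0.12 (limma unadjusted p = 0.0075). The pair of cold-inducible RNA-binding proteins differed in opposite directions. Rbm3 read 5.44, 5.20 and 5.60 in withdrawal, against 4.50, 3.71 and 4.56 in saline, a difference of 1.15 ± 0.24 (2.23-fold; limma unadjusted p = 0.000603, adjusted p = 0.538), and its second probe gave 1.15. Cirbp read 9.42, 9.67 and 9.54 in withdrawal, against 9.77, 9.81 and 10.04 in saline, a difference of −0.33 ± 0.11 (limma unadjusted p = 0.0123). Acute minus saline and repeated minus saline each also had 1 of the pair higher and 1 lower at an unadjusted limma p under 0.05. Withdrawal minus acute and withdrawal minus repeated had 0 at that limit. Chaperones of the endoplasmic reticulum and the unfolded protein response had 10 of 17 measured members higher, a median of 0.02 (−0.02 without saline array 3) and 0 members at an unadjusted limma p under 0.05 (1 lower member with the replicate block).

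**Figure D2:**
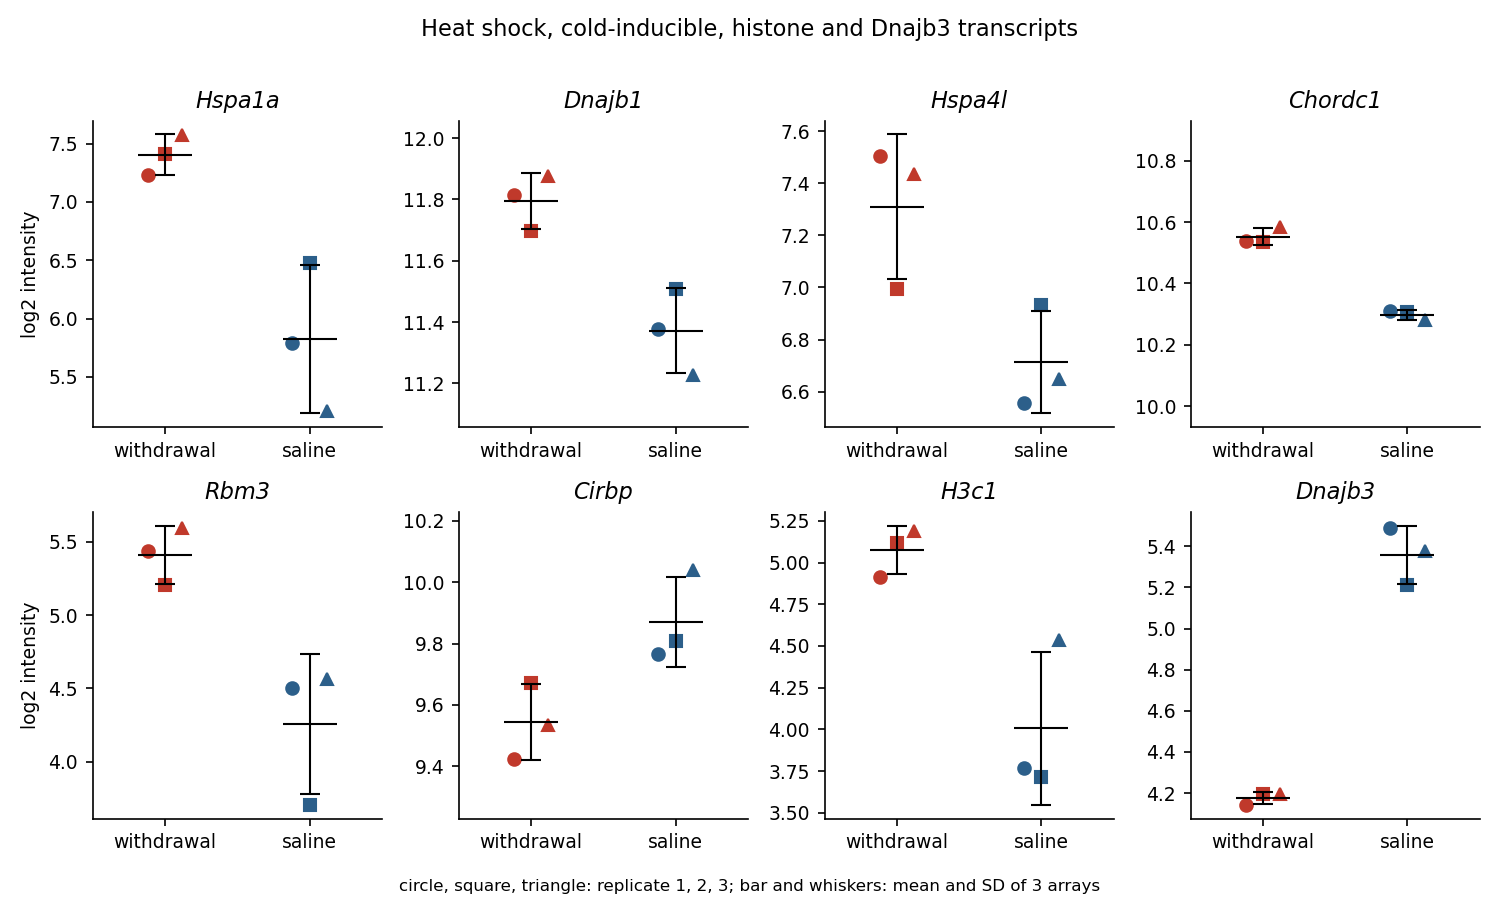
Log2 intensity of heat shock genes (Hspa1a, Dnajb1, Hspa4l, Chordc1), cold-inducible genes (Rbm3, Cirbp), the histone gene H3c1 and Dnajb3 on the 3 withdrawal arrays (left) and 3 saline arrays (right), with mean and SD. The groups do not overlap in any of the 8 panels; Cirbp and Dnajb3 are lower in withdrawal and the other 6 genes are higher.

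G9a, the enzyme named in the title of the series, did not differ beyond the spread between arrays. Ehmt2 read 10.34, 10.13 and 10.33 in withdrawal, against 10.20, 10.21 and 10.31 in saline. The groups overlapped, and the difference was 0.03 ± 0.10 (95% interval −0.20 to 0.25; limma unadjusted p = 0.804). A second probe gave −0.00, and another, dim probe, detected on 3 withdrawal arrays and 1 saline array, gave 0.36. Ehmt1, which encodes the G9a partner GLP, read 5.61, 4.78 and 4.91 in withdrawal, against 5.97, 5.85 and 5.02 in saline, a difference of −0.52 ± 0.38, and its other probe gave 0.17. Setdb1, an H3K9 methyltransferase of silenced repeats, read 8.25, 8.17 and 8.35 in withdrawal, against 8.05, 7.90 and 7.99 in saline, apart by 0.28 ± 0.11 (limma unadjusted p = 0.0248).

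Histone demethylases were higher for 14 of 19 measured genes with a median of 0.08, and for 12 of 19 with a median of 0.02 when set against genes of like length in the genome. An unadjusted limma p under 0.05 was reached by 3, all higher, and with the replicate block also by 1 lower member. Kdm7a, an H3K9 and H3K27 demethylase, read 10.89, 10.71 and 10.83 in withdrawal, against 10.43, 10.50 and 10.50 in saline, apart by 0.34 ± 0.10 (limma unadjusted p = 0.00823), and its second probe gave 0.47. Kdm3a, an H3K9 demethylase, and Kdm5a, an H3K4 demethylase, differed by 0.34 ± 0.13 and 0.36 ± 0.13. Kmt2c, an H3K4 methyltransferase of enhancers, read 10.36, 10.43 and 10.23 in withdrawal, against 10.04, 9.76 and 9.92 in saline. It was apart by 0.43 ± 0.10 (1.35-fold; limma unadjusted p = 0.00127) and was also 0.38 ± 0.10 above acute and 0.28 ± 0.10 above repeated (limma unadjusted p = 0.00295 and 0.0167), while a dim second probe gave −0.11. Sirt1, a deacetylase that uses NAD, read 8.65, 8.67 and 8.61 in withdrawal, against 8.34, 8.08 and 8.41 in saline, apart by 0.37 ± 0.12 (limma unadjusted p = 0.0129). Deacetylases and sirtuins as a list had 8 of 17 members higher. Among CREB-family genes and coactivators 7 of 13 were higher, and Atf2 and Ep300 lay apart by 0.25 ± 0.09 and 0.22 ± 0.08.

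Histone genes gave 13 of 30 measured members higher and a median of −0.05 (0.05 set against genes of like length in the genome), yet 3 members with an unadjusted limma p under 0.05 were all higher and all dim. H3c1, a replication-type H3 gene, read 4.91, 5.12 and 5.19 in withdrawal, against 3.77, 3.71 and 4.53 in saline. The groups were apart by 1.07 ± 0.22 (2.10-fold; limma unadjusted p = 0.000546, adjusted p = 0.538). H4c4 read 5.36, 5.36 and 5.27 in withdrawal, against 4.98, 4.74 and 4.33 in saline, apart by 0.65 ± 0.15 (limma unadjusted p = 0.00122). H2bc8 stood at the floor on all saline arrays and was detected on 2 of 3 withdrawal arrays, so no fold is given. Clustered histone genes are close in sequence, and signal shared between copies was not tested.

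**Figure D3:**
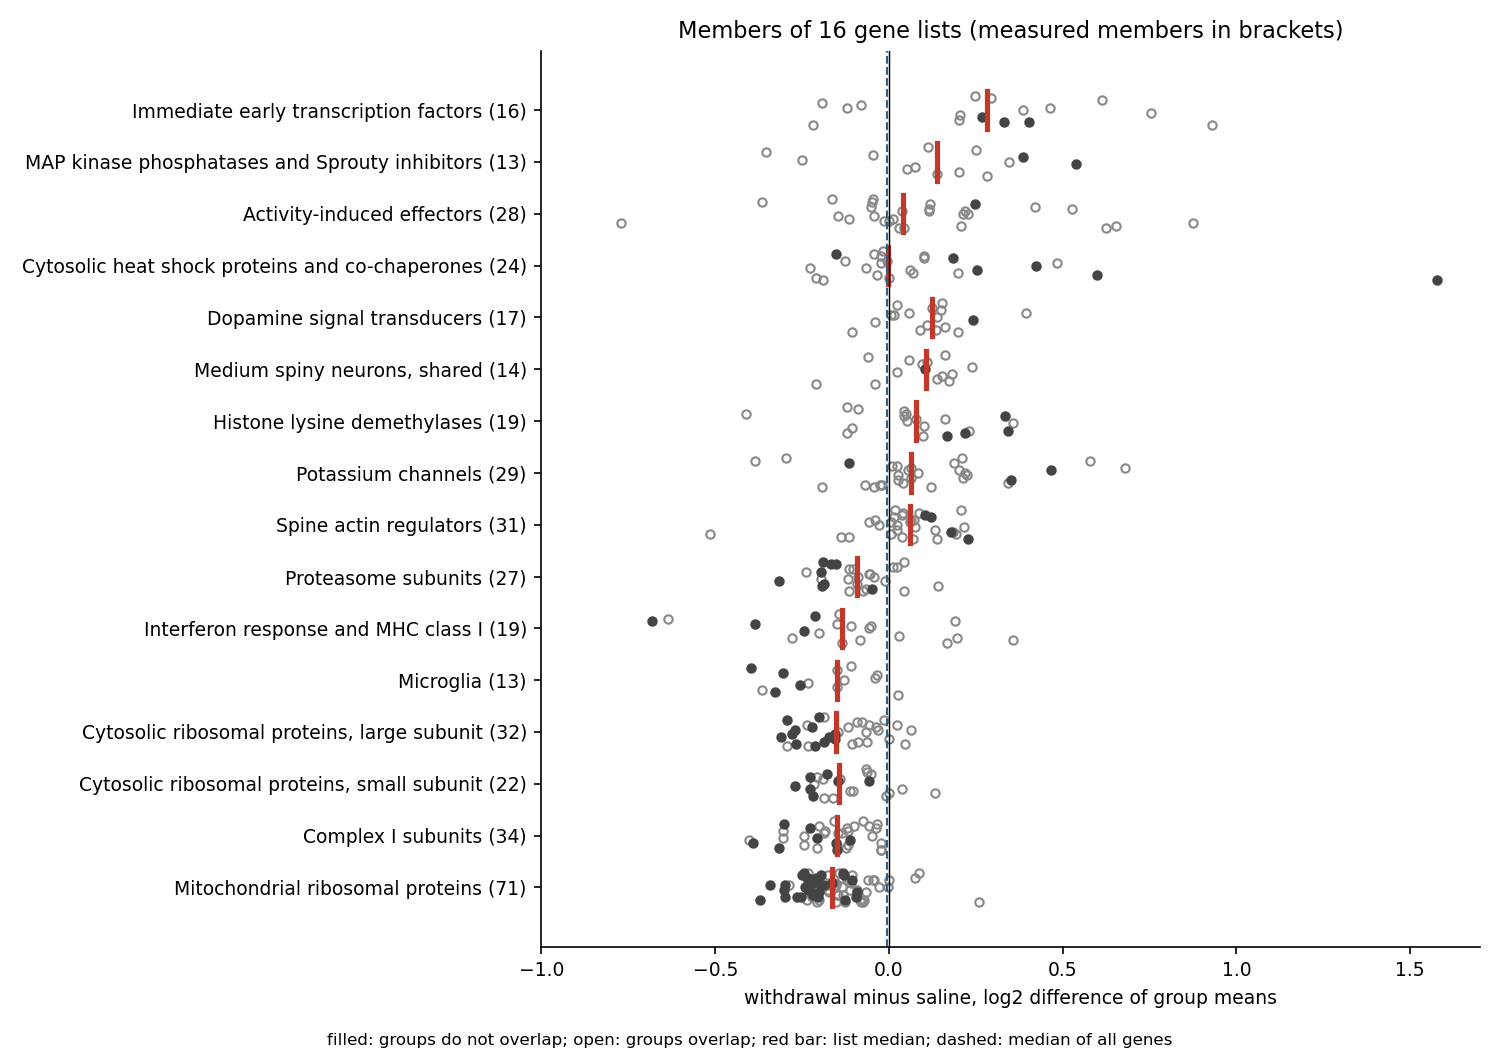
Log2 difference, withdrawal minus saline, of each measured member (circles) of 16 gene lists, with the number measured in brackets. Filled circles are genes whose groups do not overlap, red bars are list medians and the dashed line is the median of all genes; immediate early genes lie to the right with a median of 0.28, while complex I subunits, all 34 below 0, and ribosomal lists lie to the left.

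The most uniform direction was seen among genes of mitochondria and ribosomes, which were lower in withdrawal by small amounts. All 34 measured subunits of respiratory complex I, the NADH dehydrogenase of the mitochondrial inner membrane, were lower, with a median of −0.15, where 49% of all genes were higher. At an unadjusted limma p under 0.05 there were 6, against 3.77% of all genes, and the groups did not overlap for 8, against 7.97%. Ndufb7 read 8.89, 9.01 and 8.86 in withdrawal, against 9.32, 9.50 and 9.11 in saline, with every withdrawal array below every saline array and a difference of −0.39 ± 0.11 (1.31-fold lower; limma unadjusted p = 0.00616). Ndufb10 and Ndufb3, further accessory subunits, differed by −0.30 ± 0.09 and −0.32 ± 0.10. Over all 5 complexes of oxidative phosphorylation 62 of 70 genes were lower, with a median of −0.14, of which 8 had an unadjusted p under 0.05. With the replicate block on the 6 arrays, 2 subunits of complex I and 2 over all complexes were at that limit. Sdhc, a membrane anchor of complex II, read 11.06, 11.11 and 10.95 in withdrawal, against 11.29, 11.34 and 11.37 in saline, apart by −0.29 ± 0.08 (limma unadjusted p = 0.00524). Atp5g2, a ring subunit of the ATP synthase, read 9.96, 10.19 and 10.28 in withdrawal, against 10.44, 10.53 and 10.40 in saline, a difference of −0.31 ± 0.10 (limma unadjusted p = 0.0101).

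Mitochondrial ribosomal proteins were lower for 67 of 71 measured genes, with a median of −0.17. The groups did not overlap for 30 of them, against 7.97% of all genes, and 17 had an unadjusted limma p under 0.05 (4 with the replicate block on the 6 arrays). Mrps16, a small-subunit protein, read 9.16, 9.30 and 9.24 in withdrawal, against 9.60, 9.59 and 9.54 in saline, apart by −0.34 ± 0.09 (1.27-fold lower; limma unadjusted p = 0.0041). Mrpl55, of the large subunit, differed by −0.30 ± 0.09. Cytosolic ribosomal proteins were lower for 48 of 54, with a median of −0.15, of which 19 had groups that did not overlap and 11 an unadjusted p under 0.05 (0 with the replicate block on the 6 arrays). Rpl19 read 11.01, 11.16 and 11.24 in withdrawal, against 11.37, 11.49 and 11.39 in saline, and Rps13 differed by −0.27 ± 0.10. Both were lower on every withdrawal array, although a second Rps13 probe gave 0.02. Proteasome subunits, the proteolytic machine for ubiquitin-tagged proteins, were lower for 22 of 27 with a median of −0.09, and Psmb5 and Psmb1, subunits of its catalytic core, differed by −0.32 ± 0.13 and −0.19 ± 0.08. By contrast, translation initiation and elongation factors had 16 of 33 lower and a median of 0.00.

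These shifts differed in size between arrays of the same number. Taking withdrawal minus saline within replicates 1, 2 and 3, the median of complex I was −0.29, −0.14 and −0.06, that of mitochondrial ribosomal proteins −0.29, −0.12 and −0.08, and that of cytosolic ribosomal proteins −0.21, −0.15 and −0.05. All 9 values were below 0 and the pair of arrays numbered 1 gave the largest. Without withdrawal array 1 the medians were −0.10, −0.12 and −0.10. The other cocaine groups were lower than saline as well. In repeated minus saline the median was −0.17 for complex I (31 of 34 lower) and −0.15 for mitochondrial ribosomal proteins (67 of 71). For large-subunit cytosolic ribosomal proteins it was −0.16 (30 of 32). Acute minus saline had −0.09 for each of these lists, and withdrawal minus repeated had 0.00, −0.01 and 0.02. The contrasts with saline share the saline arrays. The counts at an unadjusted p under 0.05 changed with the array left out, as did the share of all genes lower at that limit. That share was 3.77% with all arrays, and 2.05% and 2.86% without withdrawal array 1 and 3. Without saline array 1, 2 and 3 it was 3.17%, 2.29% and 4.15%. Complex I had 3 without withdrawal array 3 or saline array 2 and 10 without saline array 3. Mitochondrial ribosomal proteins had 5 without withdrawal array 1 or saline array 1, 11 without withdrawal array 3 and 3 without saline array 2. Cytosolic ribosomal proteins had 1 without withdrawal array 1, 4 without saline array 2 and 7 without saline array 3. The proteasome had 0 without withdrawal array 1 or 3 or saline array 1 or 2.

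**Figure D4:**
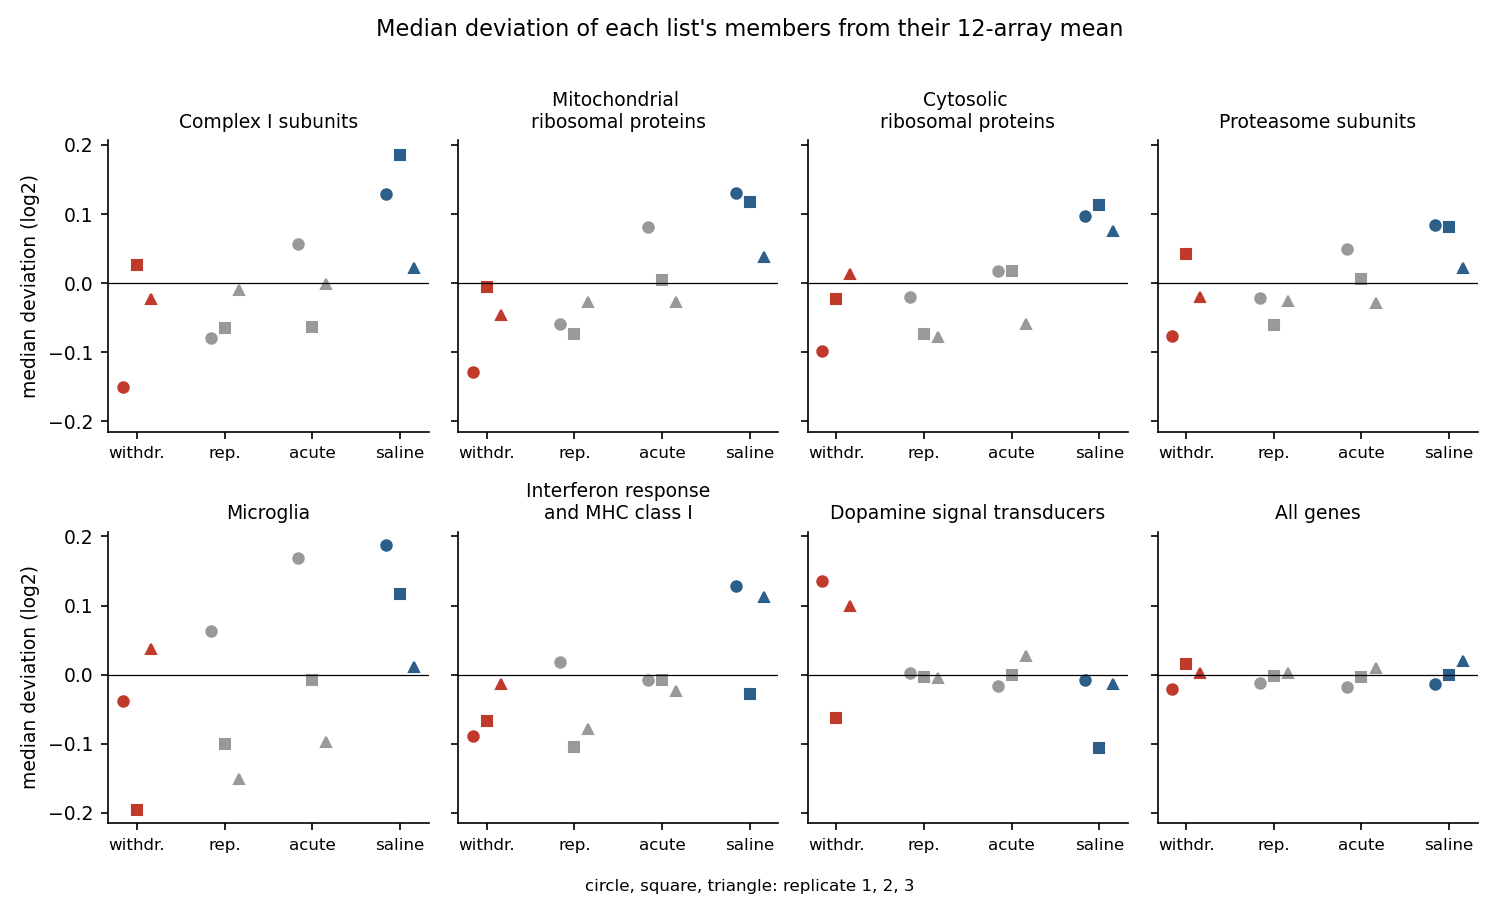
Median deviation (log2) of the members of 7 gene lists, and of all genes, from their mean over the 12 arrays, by array, with withdrawal on the left, repeated and acute in grey and saline on the right; symbols mark the replicate number. For complex I, withdrawal array 1 is lowest at −0.15 and saline array 2 highest at 0.19, while the medians of all genes stay between −0.02 and 0.02.

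Microglial markers were lower as well, for 12 of 13 measured genes of 16 listed, with a median of −0.15. Their summed intensity was 5800 to 6575 on the withdrawal arrays and 6501 to 7076 on the saline arrays. Tyrobp, the adaptor of microglial receptors, read 7.58, 7.55 and 7.56 in withdrawal, against 7.97, 8.13 and 7.77 in saline, apart by −0.40 ± 0.14 (1.32-fold lower; limma unadjusted p = 0.0161). Tmem119, a microglia-specific membrane protein, and Trem2, the receptor that signals through Tyrobp, differed by −0.33 ± 0.12 and −0.26 ± 0.10 with groups apart. These 3 were the members with an unadjusted p under 0.05, and 1 member had one without withdrawal array 2, without saline array 2, or with the replicate block on the 6 arrays. The pairs numbered 1, 2 and 3 gave medians of −0.23, −0.29 and 0.02, so replicate 3 did not share the direction. Interferon-response and MHC class I genes were lower for 14 of 19, with a median of −0.13. Ifi27, an interferon-induced mitochondrial protein, read 10.52, 10.65 and 10.61 in withdrawal, against 10.78, 10.85 and 10.81 in saline, a difference of −0.21 ± 0.08 (limma unadjusted p = 0.021), and B2m, the light chain of MHC class I, differed by −0.25 ± 0.10. The groups of both genes were apart. The interferon-induced conjugating enzyme Ube2l6 was detected on 0 withdrawal and 3 saline arrays and was at least 1.36-fold lower. It was also detected on 2 acute and 0 repeated arrays, so without the saline arrays it would not have passed the detection filter. No p is therefore given for it. The count of 3 members at an unadjusted p under 0.05, which includes Ube2l6, was 1 without withdrawal array 1, without saline array 2, or with the replicate block on the 6 arrays. Lamtor2, a subunit of the lysosomal Ragulator that recruits mTORC1, read 9.46, 9.34 and 9.48 in withdrawal, against 9.87, 9.98 and 9.80 in saline. The groups were well apart, by −0.46 ± 0.09 (1.37-fold lower; limma unadjusted p = 0.000496, adjusted p = 0.538), and its other probes gave −0.36 and −0.28. Lamtor4, of the same complex, differed by −0.24 ± 0.09. The list they came from, Ragulator, vacuolar ATPase and lysosomal genes, had 11 of 28 measured members higher and a median of −0.01.

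The direction of a gene went with its genomic span, the distance between its ends in the annotation. The 12721 genes with a span were divided into 5 equal classes. In the shortest class, of at most 7238 bases, the median difference was −0.11 and 27.2% of genes were higher in withdrawal. The middle classes had medians of −0.05, 0.00 and 0.05, and the longest class, from 73427 bases, had 0.08 with 68.1% higher. The order held within each replicate number: the shortest and longest classes had −0.15 and 0.13 in replicate 1, −0.09 and 0.09 in replicate 2, and −0.07 and 0.03 in replicate 3. Acute minus saline and repeated minus saline, which share the saline arrays, gave −0.05 and 0.03, and −0.11 and 0.08. Of the cytosolic ribosomal genes 94.4% lay in the shortest class. Set against genes of like span, their median was −0.03 with 32 of 54 lower, that of mitochondrial ribosomal genes −0.08 with 60 of 71 lower, that of complex I −0.09 with 29 of 34 lower, that of all 5 complexes −0.06 with 52 of 70 lower, that of proteasome subunits −0.06 with 18 of 27 lower, and that of microglial markers −0.09 with 12 of 13 lower. For the interferon list it was −0.03. Immediate early genes, none of which lay in the longest class, had 0.34 on the same basis with 13 of 16 higher. RNA quality was not measured here, and its part in the span order was not tested.

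**Figure D5:**
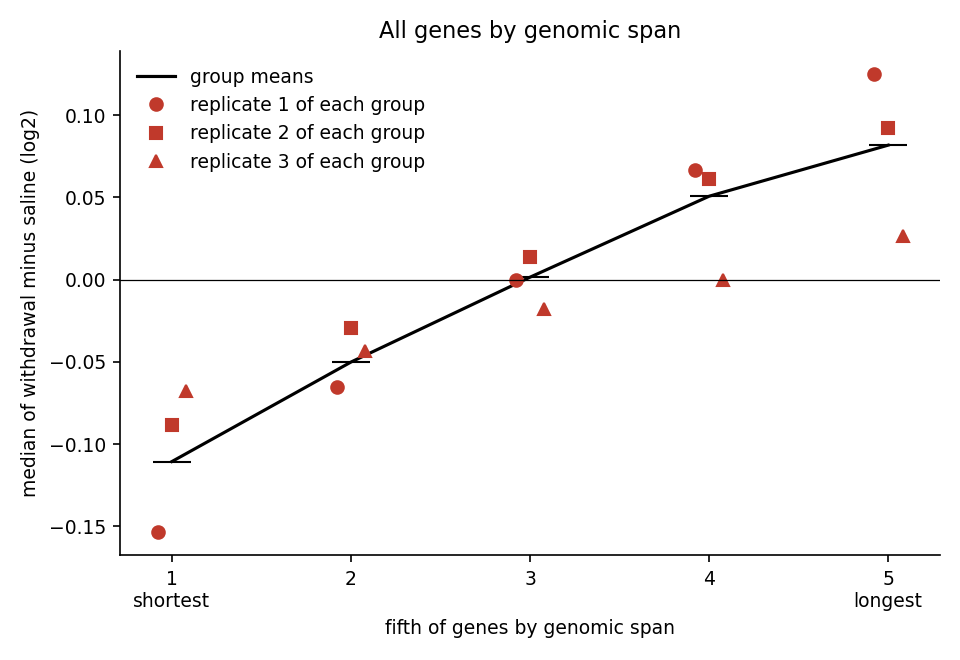
Median log2 difference, withdrawal minus saline, of all genes in 5 equal classes by genomic span, for the group means (black line) and for each replicate number (red symbols). The median runs from −0.11 in the shortest class to 0.08 in the longest, and replicate 1 has the widest range, −0.15 to 0.13.

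Genes of striatal dopamine signalling were higher by small amounts. Of 17 measured transducers 15 were higher, with a median of 0.13. It was 0.05 without withdrawal array 1, 0.22 without withdrawal array 2, and 0.07 against genes of like span. Arpp19, a phosphatase inhibitor controlled by protein kinase A, read 11.22, 11.10 and 11.26 in withdrawal, against 10.89, 10.89 and 11.07 in saline. It was the member with groups apart, by 0.24 ± 0.09 (limma unadjusted p = 0.0256), and a second probe gave −0.14. Drd1 and Drd2, the receptors of the direct and the indirect pathway, differed by 0.20 ± 0.14 and 0.01 ± 0.12. Medium spiny neuron markers shared by both pathways were higher for 11 of 14 with a median of 0.11 (0.04 without withdrawal array 1), and for 10 of 14 with a median of 0.03 against genes of like span. Markers of the direct pathway were higher for 4 of 9 (6 of 9 against genes of like span) and those of the indirect pathway for 2 of 7 (3 of 7). Penk, the enkephalin precursor of the indirect pathway, read 11.57, 11.23 and 11.59 in withdrawal, against 11.75, 11.67 and 11.31 in saline, with overlapping groups.

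Channels, receptors and release genes had single members that stood apart. Potassium channels were higher for 21 of 29 with a median of 0.06, and 3 had an unadjusted limma p under 0.05 (5 with the replicate block on all 12 arrays, 3 higher and 1 lower with it on the 6 arrays). Kcnab1, an auxiliary subunit of Shaker channels, read 12.75, 12.61 and 12.75 in withdrawal, against 12.37, 12.19 and 12.49 in saline, apart by 0.35 ± 0.11 (limma unadjusted p = 0.00887), and its other probes gave 0.25 and 0.13. Kcna2, a Shaker channel that such subunits join, read 8.87, 8.59 and 8.62 in withdrawal, against 8.04, 8.54 and 8.10 in saline, apart by 0.47 ± 0.16 (limma unadjusted p = 0.013). Kcna4, another Shaker channel, differed by 0.68 ± 0.28 with overlapping groups. Of 6 measured GABA-A receptor subunits 3 were higher, and 2 of these stood apart. Gabrg3 read 7.99, 7.79 and 8.03 in withdrawal, against 7.58, 7.40 and 7.55 in saline, a difference of 0.43 ± 0.10 (limma unadjusted p = 0.00157), and its second probe gave 0.87. Gabra3 differed by 0.66 ± 0.27. Gria2, the AMPA receptor subunit that blocks calcium entry, read 13.04, 12.79 and 12.73 in withdrawal, against 12.55, 12.47 and 12.70 in saline, apart by 0.28 ± 0.10 (limma unadjusted p = 0.0225), and its other probes gave 0.32 and 0.15. AMPA, NMDA and kainate receptor subunits together were higher for 9 of 15, and for 6 of 15 against genes of like span. Syt4, a synaptotagmin of dense-core vesicles that is itself induced by activity, read 12.54, 12.48 and 12.56 in withdrawal, against 12.25, 12.19 and 12.24 in saline. The groups were tight and apart by 0.30 ± 0.08 (limma unadjusted p = 0.00391). Shank1, a postsynaptic scaffold, was detected on 2 withdrawal and 0 saline arrays and was at least 1.31-fold higher, though a second probe gave −0.05. Regulators of spine actin were higher for 25 of 31 with a median of 0.06, which was 0.03 without saline array 2, 0.09 without saline array 1, and 0.03 with 19 of 31 higher against genes of like span. Kalrn, a regulator of spine shape, read 10.46, 10.16 and 10.23 in withdrawal, against 10.05, 10.06 and 10.06 in saline, and all of its other probes were above 0, at 0.15, 0.17 and 0.25.

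Outside these lists, the genes with the smallest p among those that met the criteria of the series were mostly dim. Zkscan8, a zinc finger protein, read 4.21, 3.94 and 4.29 in withdrawal and stood at the floor on all saline arrays. It was detected on 3 withdrawal and 0 saline arrays and was at least 1.18-fold higher. The withdrawal arrays alone would carry it past the detection filter, and the floor leaves no spread among its saline arrays. No p is therefore given for it. Dvl2, a Wnt signal transducer, and Plekhn1 were likewise not detected in saline, at least 1.19-fold and 1.10-fold higher. Zfp52, another zinc finger gene, read 5.47, 5.75 and 5.51 in withdrawal, against 5.02, 4.67 and 4.83 in saline, a difference of 0.74 ± 0.14. Rfx7, a winged-helix factor, read 6.11, 5.52 and 5.93 in withdrawal, against 5.16, 5.18 and 5.26 in saline, and Lrp5, a Wnt co-receptor, and Atp8b1, a lipid flippase, differed by 0.96 ± 0.21 and 0.88 ± 0.19. Ppp4r3b, a regulatory subunit of protein phosphatase 4, read 9.46, 9.69 and 9.64 in withdrawal, against 9.05, 9.07 and 9.25 in saline. Its difference was 0.48 ± 0.10 and its second probe gave 0.36. Hecw1, a ubiquitin ligase, differed by 0.42 ± 0.09 with 0.51 on the second probe, whereas Snrnp48, of the minor spliceosome, differed by 0.60 ± 0.13 with −0.27 and −0.39 on its other probes.

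On the lower side, after Dnajb3, Rec114, a meiotic recombination gene, read 3.32, 3.66 and 3.81 in withdrawal, against 4.48, 5.22 and 4.93 in saline, a difference of −1.28 ± 0.24 (limma unadjusted p = 0.000273, adjusted p = 0.538). Gngt2, a G protein gamma subunit known from cones, read 5.05, 4.86 and 5.09 in withdrawal, against 5.75, 5.84 and 5.64 in saline, and the groups were far apart. Nlrp10 and Slc23a3 were detected on 0 withdrawal arrays and were at least 1.22-fold and 1.47-fold lower. Paxx, a factor of DNA end joining, read 8.41, 8.69 and 8.62 in withdrawal, against 8.96, 8.98 and 8.96 in saline, a difference of −0.39 ± 0.09. Meaf6, a subunit of histone acetyltransferase complexes, read 7.63, 7.49 and 7.58 in withdrawal, against 8.25, 8.19 and 7.98 in saline, a difference of −0.57 ± 0.14. Rnf25, a ubiquitin ligase, differed by −0.39 ± 0.09, with −0.09 and −0.32 on its other probes. The list ended with 2010204K13Rik at −0.73 ± 0.18 and Ripply2 at −0.56 ± 0.14, both with groups apart.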

How the data were processed

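RNA from nucleus accumbens punches was hybridised to 12 Illumina MouseWG-6 v2.0 arrays, 3 per group, and the groups were taken from the sample titles and treatment labels. Per the series' design text, the authors background subtracted and quantile normalized the intensity values in BeadStudio, which the submitters' processing notes also name, and analysed them in GeneSpring; the labels state no version. The other deposited intensity table equals these values plus a constant of 60.7, and the deposited detection p-values come from it per the file headers.

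Subtracted intensities were floored at 10 and log2 transformed, which compresses the differences of dim probes (6.34% of the kept values were at the floor). Probes with detection p under 0.05 on at least 3 of 12 arrays were kept, 25478 of 45281. No slide or scan date was used here. The deposited platform annotation gave 1 symbol for 34885 probes, several for 18 and none for 10378. Genes were named through RefSeq tables (34807 matched by Entrez identifier, 0 symbols changed), and 5408 of 12732 genes had several kept probes. limma 3.58.1 in R 4.3.3 fitted 4 group means to all 12 arrays without covariates (8 residual and 2.16 prior degrees of freedom), and p-values are two-sided and Benjamini-Hochberg adjusted over the 25478 probes. The fit was tested on simulated data. Where no array of a group detected a probe, a bound ("at least") replaces the fold. Promoters and genomic spans came from RefSeq (GRCm38.p6).

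Replicate numbers occur in every group and paired the arrays: deviations from the group mean correlated at 0.386, 0.293 and 0.166 for same-numbered withdrawal and saline arrays. Fits with the number as a block, on all 12 arrays and on the 6 of the comparison, are given beside the list counts they moved most. Named genes were the 12 higher and 12 lower with the smallest p among those meeting the series' criteria, 14 fixed activity and G9a genes, and up to 6 members per list by p. The 51 gene lists, 53 with the combined ones, and the members of the comparison were chosen with earlier results of these data known, so lists are described and not tested. The precision is limited by 3 arrays per group. Alternatives covered the floor, an offset of 50, unsubtracted signals, the detection filter, the arrays in the fit, array weights, the block, the probe of a gene, genomic span, and each array left out.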

Additional observations from a re-analysis of the deposited data

How the results depend on the processing

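No alternative called a probe at an adjusted p under 0.05 except the fit without a detection filter, which called 1, Pdzrn4, detected on 0 of 12 arrays and higher by 0.19 (limma adjusted p = 9.73e-05). Pdzrn4 stood at the floor on all saline arrays, so this p does not measure the spread between saline pools. The number of probes at an unadjusted p under 0.05, 1990 as reported, was 1266 to 2542 with single arrays left out (lowest without saline array 2, highest without saline array 3) and 910 with 1 probe per gene. The number meeting the criteria of the series, 1005 as reported, was 86 with unsubtracted signals and 133 with an offset of 50, which both shrink differences of dim probes by construction, 840 to 1535 with single arrays left out, and 359 with 1 probe per gene. With the replicate block there were 0 adjusted, 2687 unadjusted and 1395 probes meeting the series' criteria over all 12 arrays, and 1561 of the last over the 6 arrays of the comparison (0 adjusted); it also moved the list counts given beside their results. With single arrays left out, the median was −0.0216 to 0.109 for effectors, 0.129 to 0.222 for MAP kinase inhibitors, −0.0361 to 0.0470 for heat shock proteins, 0.0477 to 0.219 for dopamine transducers and −0.174 to −0.101 for cytosolic ribosomal proteins. Set against genes of like span, an alternative chosen after seeing the data, it was 0.157 for effectors, 0.0717 for heat shock proteins, −0.0814 for mitochondrial and −0.0282 for cytosolic ribosomal proteins, and with the mean over a gene's probes it was 0.0508 for heat shock proteins. Ehmt2 ranged from −0.0133 (without withdrawal array 1) to 0.0948, and was −0.0055 without withdrawal array 3; the cause was not tested. In the lists given less room, an alternative moved a median by more than the spread between replicates 47 times, and 22 of these crossed 0. Dim signals are a limit, since probes under log2 6 made up 64.3% of those meeting the series' criteria.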

Other observations

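Circadian clock genes, the feedback loop that times daily rhythms, were higher in withdrawal for 13 of 16 measured members with a median of 0.06. Clock, the activator of the loop, read 10.23, 10.23 and 10.29 in withdrawal, against 9.83, 9.89 and 10.10 in saline, apart by 0.30 ± 0.10 (limma unadjusted p = 0.0133, adjusted p = 0.622), and its second probe gave 0.32. Genes responsive to glucocorticoids were higher for 9 of 20, and 0 had an unadjusted limma p under 0.05 (1 higher with the replicate block on all 12 arrays, 1 higher and 1 lower with it on the 6 arrays). Sgk1 read 12.92, 12.36 and 12.92 in withdrawal, against 12.32, 12.45 and 12.53 in saline, with overlapping groups.

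Vessel and pericyte markers were lower for 8 of 13 measured genes, with a median of −0.07. Set against genes of like span, 11 of 13 were lower, with a median of −0.08. At an unadjusted limma p under 0.05 there were 1 lower and 1 higher member. The lower one, Pdgfrb, a pericyte receptor, read 5.61, 5.52 and 5.76 in withdrawal, against 6.16, 6.15 and 5.91 in saline. Its difference was −0.44 ± 0.13 (limma adjusted p = 0.612). The higher one, Slco1a4, an endothelial transporter, read 7.98, 7.83 and 8.00 in withdrawal, against 7.40, 7.60 and 7.66 in saline. Its difference was 0.38 ± 0.13 (limma adjusted p = 0.626). Astrocyte markers were higher for 7 of 12 and oligodendrocyte markers for 8 of 13, with medians of 0.02 and 0.03 (the second −0.04 without saline array 3) and 0 members at an unadjusted limma p under 0.05. Haemoglobin Hba-a1 read 12.92, 12.59 and 12.25 in withdrawal, against 13.06, 12.86 and 12.54 in saline, and its groups overlapped.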
